A study of Mus musculus with 9 samples.

Results

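The interleukin-6 (IL-6) family and its signaling were followed here through 10 genes, chosen by symbol from the 54532 genes of the deposited count table. They were 5 ligands (Il6, Lif, Il11, Osm and Clcf1), 3 receptor chains (Osmr, Il6ra and Il6st), the transcription factor Stat3 and its inhibitor Socs3, and all 10 had a row in the table. The hearts were taken from wild-type, male mice of the C57BL/6J strain, between 8 and 10 weeks old, in 3 groups of 3 libraries, and the labels name no transgene and no deletion. By the study's methods every group, sham included, received drug or saline by tail vein. Sham hearts had a thoracotomy with a thread passed but not tied. MIRI (myocardial ischemia/reperfusion injury) hearts had the left anterior descending coronary artery tied for 30 min and reopened for 24 h, with saline by tail vein. GXNI hearts had the same injury and Guanxinning injection, a preparation of Danshen and Chuanxiong, at 9 mL/kg by tail vein. The agent was given within 10 min of ischemia, so that GXNI and MIRI hearts differed in the agent and shared the ligation. The labels call the material heart tissue and also cardiomyocytes. Markers of cardiomyocytes, endothelium, fibroblasts and macrophages all had counts, so the libraries were read as heart tissue. The study describes 3 independent animals a group, and the part of the heart is not given in the sources used here.

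The IL-6 family consists of secreted cytokines that, with few exceptions, signal through the shared receptor chain gp130, the product of Il6st. A ligand binds its own receptor chain and gp130, JAK kinases bound to the receptor tails phosphorylate STAT3, and STAT3 moves to the nucleus and switches on genes that include Socs3, whose product binds the receptor and shuts the signal off. In heart, IL-6 family ligands are released by injured muscle, fibroblasts and infiltrating leukocytes, and the pathway is known for roles in survival of cardiomyocytes, in hypertrophy and in the acute phase response.

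The promoter stretches of Il6, Lif, Il11 and Socs3 are shown because these genes had some of the widest ranges among the libraries. The table (GRCm38.p6) held 8 of the 10 members in 9 windows of 250 bases before the start of transcription, and Osm and Clcf1 were not in it. Each sequence reads 5′ to 3′ on the strand of its gene, ends just before the start or at an exon in GENCODE M21, and has matches to a searched motif in capitals.
Il6 promoter, chr5:30012864-30013113: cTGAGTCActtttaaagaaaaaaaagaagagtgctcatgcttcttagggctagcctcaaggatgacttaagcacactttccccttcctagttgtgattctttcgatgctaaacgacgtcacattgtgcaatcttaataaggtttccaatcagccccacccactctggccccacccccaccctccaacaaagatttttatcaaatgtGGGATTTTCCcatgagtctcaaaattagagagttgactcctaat
Lif promoter, chr11:4257318-4257556: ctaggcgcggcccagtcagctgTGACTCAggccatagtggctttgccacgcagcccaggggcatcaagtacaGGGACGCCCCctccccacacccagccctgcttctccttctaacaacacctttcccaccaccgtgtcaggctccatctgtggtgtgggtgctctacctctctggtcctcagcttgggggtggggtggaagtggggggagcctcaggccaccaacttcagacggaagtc
Il11 promoter, chr7:4778142-4778391: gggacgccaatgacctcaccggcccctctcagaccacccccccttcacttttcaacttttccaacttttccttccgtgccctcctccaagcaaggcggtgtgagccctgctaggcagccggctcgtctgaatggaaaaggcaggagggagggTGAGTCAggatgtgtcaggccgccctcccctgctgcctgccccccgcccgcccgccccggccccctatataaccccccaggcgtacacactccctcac
Socs3 promoter, chr11:117969452-117969616: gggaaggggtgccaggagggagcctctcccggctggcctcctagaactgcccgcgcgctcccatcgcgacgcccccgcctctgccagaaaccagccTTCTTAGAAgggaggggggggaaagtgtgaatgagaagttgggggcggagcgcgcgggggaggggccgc
In the Il6 stretch (plus strand) the capitals mark an AP-1 motif (TGANTCA) starting 249 bases before the start and a κB consensus starting 44 bases before it. In the Lif stretch (plus strand) they mark an AP-1 motif at 228 bases and a κB consensus at 178 bases before the start, and in the Il11 stretch (minus strand, an inner start of the gene) an AP-1 motif at 98 bases. In the Socs3 stretch (minus strand, also an inner start, within the span of the gene in GENCODE M21) they mark a STAT motif (TTCNNNGAA) at 154 bases before the start. Both strands were searched, and none of these matches overlapped. Over the 32851 promoters of the table the AP-1 motif was in 6.75%, the κB consensus in 7.25% and the STAT motif in 7.02%, against 3, 2 and 1 of the 9 member windows. A cyclic AMP response element (TGACGTCA, in 1.55% of promoters) and a TATA box (TATAAA, in 12.4%) had 0 matches in the member windows. A match is a description of letters, not a site of binding.

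Libraries held 17119454 to 22811295 counts, and values are given as CPM, counts scaled to a common library size after normalisation by trimmed mean of M-values. In that unit 3 counts, the floor used for folds against a group with 3 counts or fewer in every library, corresponded to 0.129 to 0.178 CPM. Libraries within the injured groups stood far apart. On the first principal component (64.7% of the variance of 15207 genes) the sham libraries lay between -59.8 and -52.2, MIRI 2 at -44.4 and GXNI 1 at -43.5 lay near them, GXNI 2 lay at 18.7, and MIRI 1, MIRI 3 and GXNI 3 lay at 61.6, 83.2 and 94.4. The library most similar to each injured library carried another group's label, MIRI 2 with GXNI 1, MIRI 1 and MIRI 3 each with GXNI 3, GXNI 2 with MIRI 1, and GXNI 1 with sham 1. No gene was deleted or added in these animals that could check a label, and the labels were not checked against the study's other measures. Whether a label was exchanged, for instance between MIRI 2 and GXNI 3, was not tested, and every value of GXNI against MIRI rests on the labels as given. For this reason the counts of called members are also given without the libraries that stood apart, and a comparison of all 6 injured hearts with sham, which does not depend on which of the injured groups a library belongs to, stands beside the group comparisons.

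Among the ligands, Il6 itself was almost silent in sham heart and reached 17.9 to 31.2 CPM in 3 injured hearts. Il6 (ENSMUSG00000025746, GRCm38 chr5:30013114-30019981, plus strand, protein coding), the founding cytokine of the family, stood at 0.107, 0.149 and 0.533 CPM in the sham libraries, 17.9, 0.178 and 24.4 in MIRI and 0.599, 2.71 and 31.2 in GXNI, in the order of replicates 1 to 3. MIRI 1, MIRI 3 and GXNI 3 were high, GXNI 2 was intermediate, and MIRI 2 lay within the sham range, with 3 counts. Raw counts were 383 and 568 in MIRI 1 and MIRI 3 and 538 in GXNI 3, against 2, 3 and 10 in sham. Group means were 0.263 ± 0.235 in sham, 14.2 ± 12.5 in MIRI and 11.5 ± 17.1 in GXNI (SD, n = 3 each), so that in both injured groups the SD was near or above the mean.

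Lif and Osm lie next to each other on chromosome 11, 16530 bases apart and on the same strand. Lif (ENSMUSG00000034394, chr11:4257557-4272514, plus strand), leukemia inhibitory factor, signals through the LIF receptor and gp130. Its level was 0.268, 0.297 and 0.213 CPM in sham, 6.98, 0.772 and 12.6 in MIRI and 0.300, 1.43 and 20.1 in GXNI. All 6 injured libraries lay above all 3 sham libraries, though GXNI 1 only by the difference between 0.300 and 0.297 CPM, 6 counts each with sham 2. Osm (ENSMUSG00000058755, chr11:4236420-4241026, plus strand), oncostatin M, is a product of leukocytes that binds the receptor chain encoded by Osmr. It was measured at 0.161, 0.198 and 0.639 CPM in sham, 6.13, 0.475 and 7.55 in MIRI and 0.200, 1.23 and 9.75 in GXNI. Sham 3 exceeded MIRI 2 and GXNI 1, so the sham and injured ranges of Osm overlapped.

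Il11 (ENSMUSG00000004371, chr7:4772373-4782859, minus strand), a cytokine known for its action on fibroblasts, was the member with the lowest sham level. Sham libraries held 1, 2 and 0 counts, MIRI libraries 78, 5 and 195 and GXNI libraries 0, 44 and 171, or up to 9.93 CPM. With each sham library set at the floor of 3 counts, the mean of the 6 injured hearts was at least 26-fold higher, while GXNI 1 had no count. Clcf1 (ENSMUSG00000040663, chr19:4214238-4223490, plus strand), cardiotrophin-like cytokine factor 1, signals through gp130 and the LIF receptor. It was the ligand with the highest sham level, 1.77, 1.88 and 1.44 CPM, and stood at 15.4, 4.16 and 19.1 in MIRI and 4.05, 7.49 and 31.8 in GXNI. All injured libraries were clearly above sham, the lowest, GXNI 1, by more than the whole sham range. Clcf1 overlaps a protein-coding model on its own strand (AC109138.7) and a miRNA gene (Gm26115) on the other, so its counts may be shared.

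Summed over the 5 ligands per kilobase of exon, the ligand level was 0.668, 0.759 and 0.928 CPM per kb in sham, 17.5, 1.69 and 25.3 in MIRI and 1.47, 5 and 34.9 in GXNI. The mix differed between low and high libraries. Clcf1 made up 69.7, 65.2 and 40.7% of the sum in sham and 64.4 and 72.5% in MIRI 2 and GXNI 1, but 23.1, 19.8 and 23.9% in MIRI 1, MIRI 3 and GXNI 3. In those last 3 libraries Il6 was the largest part, with 42.2, 39.7 and 36.8%. In sham 1, sham 2 and MIRI 2 its share was 6.62, 8.06 and 4.33%, which rest on 2, 3 and 3 counts of Il6. Other low libraries had larger shares of Il6, 23.7% in sham 3 and 16.8% in GXNI 1, and the intermediate GXNI 2 had 22.3%.

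**Figure D1:**
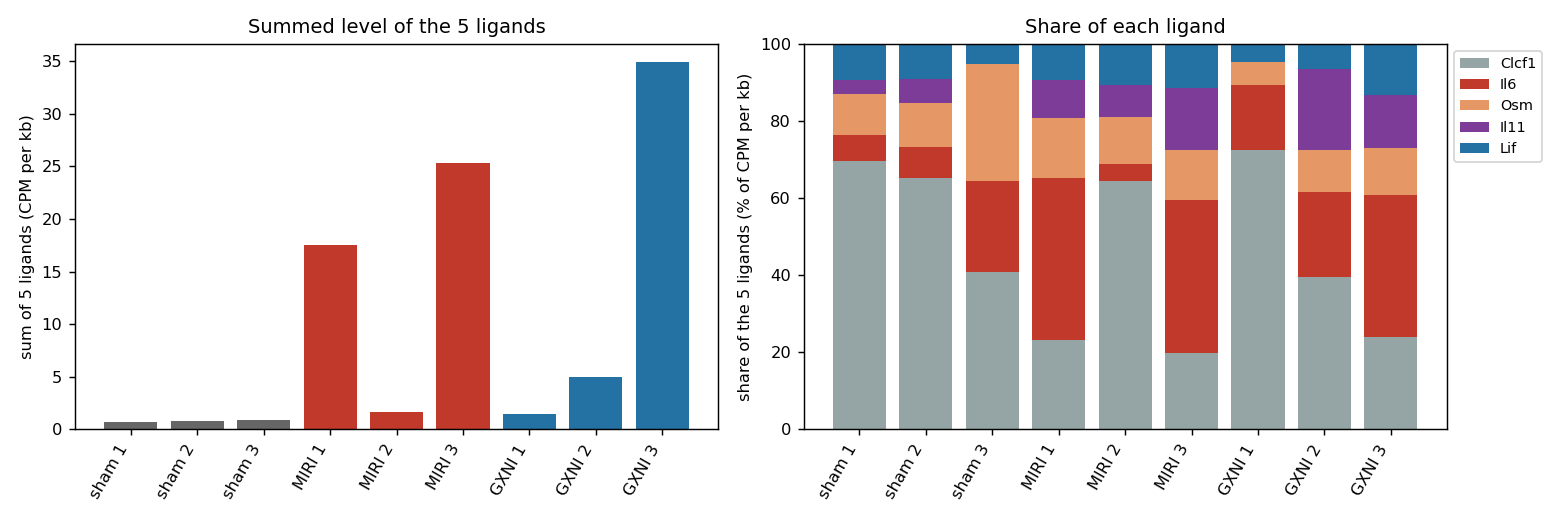
Left, the summed level of the 5 ligands (CPM per kilobase of exon) in each of the 9 libraries, as bars from 0. Right, the share of each ligand in that sum (%), stacked to 100; MIRI 1, MIRI 3 and GXNI 3 have sums of 17.5 to 34.9 with Il6 as the largest part, and Clcf1 is the largest part in the other 6 libraries.

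The receptor chains varied much less than the ligands. Osmr (ENSMUSG00000022146, chr15:6813577-6874969, minus strand) encodes the chain that pairs with gp130 to bind oncostatin M. Its levels were 49.3, 32.5 and 39.6 CPM in sham, 135, 45.1 and 85.2 in MIRI and 55.3, 82.6 and 130 in GXNI. All GXNI libraries and MIRI 1 and 3 exceeded all sham libraries, and MIRI 2 lay inside the sham range. Il6ra (ENSMUSG00000027947, chr3:89864059-89913196, minus strand), the IL-6 binding chain, was at 17.9, 11 and 9.96 CPM in sham, 26.0, 9.86 and 24.3 in MIRI and 12.5, 15.9 and 26.0 in GXNI. Its groups overlapped, with sham 1 above GXNI 1, GXNI 2 and MIRI 2, and an antisense gene (Gm42809) lies on the other strand.

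Il6st (ENSMUSG00000021756, chr13:112464070-112510086, plus strand), the shared chain gp130, was the steadiest member. It was at 199, 182 and 185 CPM in sham, 238, 183 and 224 in MIRI and 219, 225 and 272 in GXNI, with MIRI 2 again inside the sham range. The ratio of Osmr to Il6st per length was 0.227, 0.164 and 0.196 in sham, 0.520, 0.226 and 0.349 in MIRI and 0.232, 0.337 and 0.438 in GXNI. MIRI 2 and GXNI 1 thus lay at the level of sham 1, and the other 4 injured libraries lay above it.

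Stat3 (ENSMUSG00000004040, chr11:100885098-100939540, minus strand) encodes the transcription factor that carries the signal to the nucleus, and it overlaps Stat5a on the other strand. Its levels were 266, 167 and 256 CPM in sham, 369, 273 and 316 in MIRI and 290, 371 and 350 in GXNI. All 6 injured libraries were above all sham libraries, MIRI 2 included, although the gap between MIRI 2 and sham 1 was small. Socs3 (ENSMUSG00000053113, chr11:117966079-117970047, minus strand), the feedback inhibitor, was at 19.6, 9.90 and 15.1 CPM in sham, 105, 11.8 and 148 in MIRI and 27.5, 41.3 and 166 in GXNI. All GXNI libraries were above sham, MIRI 2 was inside the sham range, and MIRI 1, MIRI 3 and GXNI 3 were again the 3 highest. Per length, Socs3 stood at 0.243, 0.195 and 0.195 of Stat3 in sham, 0.938, 0.142 and 1.55 in MIRI and 0.313, 0.366 and 1.56 in GXNI. Only in MIRI 3 and GXNI 3 did Socs3 exceed Stat3 on the scale of CPM per kb.

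**Figure D2:**
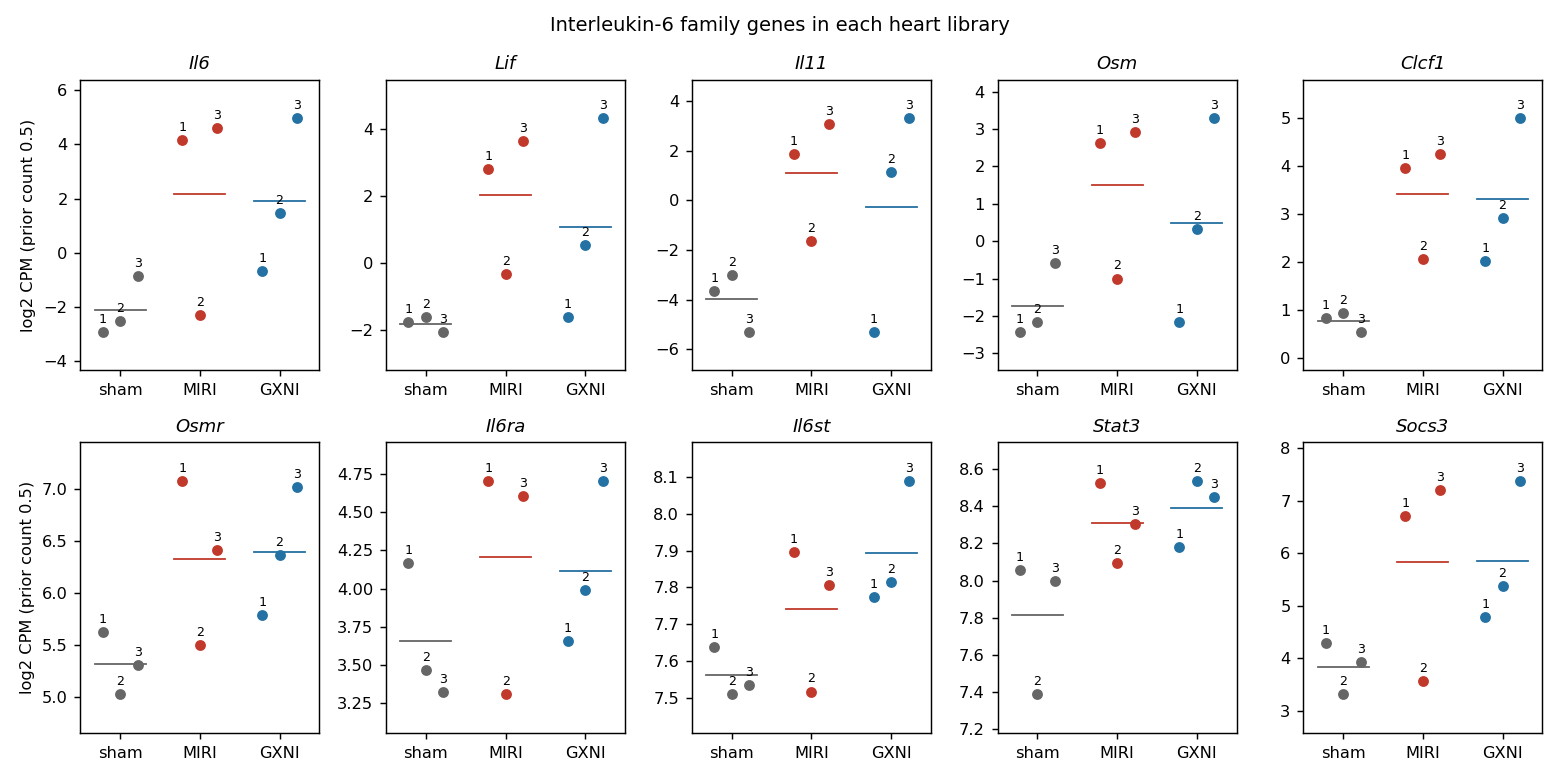
Level of each of the 10 genes in each library on a log2 CPM scale (prior count 0.5), with the replicate number at each point and a line at the mean of the group's log2 values. Each panel has its own axis; MIRI 1, MIRI 3 and GXNI 3 are the 3 highest libraries for 8 of 10 genes, all but Il6st and Stat3.

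The same 3 libraries, MIRI 1, MIRI 3 and GXNI 3, were the highest for 8 of the 10 members, the exceptions being Il6st and Stat3, for which GXNI 2 ranked among the highest 3. Pairwise Pearson r on log2 CPM over the 9 libraries ran from 0.623 for Il11 with Stat3 to 0.972 for Lif with Clcf1, and was 0.967 for Il6 with Socs3. The points share libraries and their wide spread, and r is given as a description. Per kilobase of exon, sham levels ran from Stat3 at 24.1 and Il6st at 17.0 CPM per kb through Socs3 at 5.15, Osmr at 3.34, Il6ra at 1.5 and Clcf1 at 0.446 to Osm at 0.146, Il6 at 0.108 and Lif at 0.0597, while Il11, at 2 counts or fewer in each library, lay under the floor and was given no place. Neighbours in this order whose 3 values overlapped were Stat3 with Il6st, Socs3 with Osmr, Osm with Il6 and Il6 with Lif. In the 6 injured hearts the mean order was Stat3 at 34.4, Socs3 at 28.8, Il6st at 20.4, Osmr at 7.34, Il6 at 5.29, Clcf1 at 3.59, Il6ra at 2.21, Il11 at 1.95, Osm at 1.86 and Lif at 1.62 CPM per kb. There, the values of every pair of neighbours overlapped except Il6st and Osmr.

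Markers of neutrophils moved with the ligands. The summed level of 10 neutrophil markers (among them S100a8, S100a9 and Csf3r, all 10 with counts in each library) was 60.6, 30.9 and 58.3 CPM in sham, 722, 28.9 and 643 in MIRI and 51.8, 229 and 678 in GXNI. The libraries fell into the same high, intermediate and low sets as for the ligand sum. Cardiomyocyte markers summed to 41600 to 44200 CPM in sham and to 29800, 46000 and 33700 in MIRI and 37000, 31900 and 31400 in GXNI. The sum of 5 atrial markers was 40.3 to 84.0 CPM in sham, 259, 171 and 667 in MIRI and 55.9, 98.9 and 729 in GXNI. Nppa alone made up 665 in MIRI 3 and 727 in GXNI 3, while Myl7, Sln and Bmp10 were at 0 in both libraries. Only MIRI 2 had counts for all 5, with Myl7 at 1.78 CPM and Sln at 1.37. MIRI 2 also had the highest sum of 5 adipocyte markers, 4.51 CPM, with MIRI 1 next at 0.655. GXNI 1 had the highest sum of 6 mesothelial markers, 76.1 CPM, with sham 1 next at 25.1. The sum of 8 monocyte and macrophage markers, led by Lyz2, ranged from 324 to 648 CPM over the 9 libraries with overlap between the groups, but its members went different ways. Ccr2, a receptor of recruited monocytes, was at 15.9, 10.2 and 18.4 CPM in sham, 39.4, 4.39 and 38.4 in MIRI and 9.34, 17.4 and 39.8 in GXNI, and Fcgr1 at 8 to 16 CPM in sham, 29.6, 3.15 and 33.9 in MIRI and 15.2, 26.1 and 48 in GXNI. Mrc1 and C1qa, genes of resident macrophages, were lowest in GXNI 3, at 23.4 and 47.8 CPM. In MIRI 1 and MIRI 3, Mrc1 was at 46 and 47.7 CPM, within its sham range of 41.3 to 64.2. C1qa was there at 84 and 88 CPM, below its sham range of 91.5 to 111. Adgre1, Csf1r and Lyz2 were lowest in MIRI 2, at 13.3, 40.4 and 140 CPM, and Cd68 in sham 1, at 9.72. Fibroblast markers summed to 843 to 925 CPM in sham, 612 to 793 in MIRI and 472 to 1110 in GXNI. In whole tissue, a change in the number of cells of a type and a change in RNA per cell cannot be told apart, and the part of cell composition in the member levels was not tested.

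**Figure D3:**
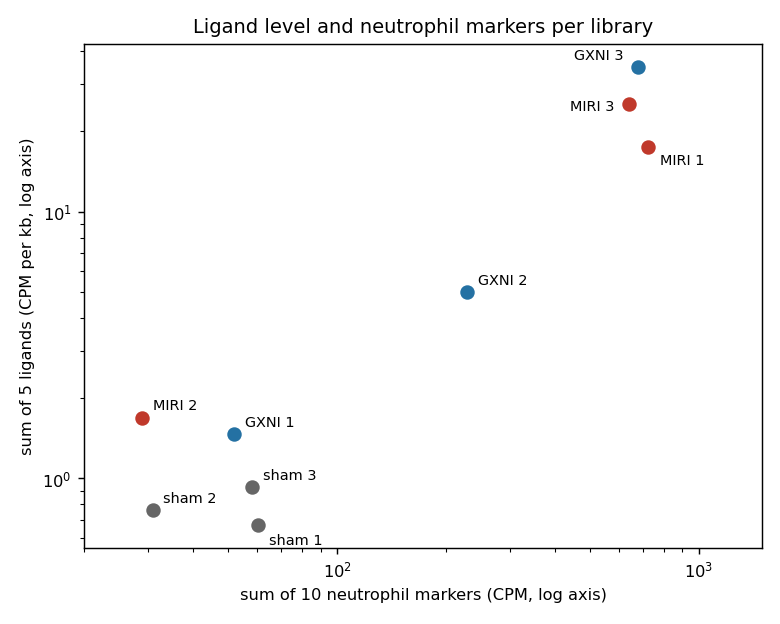
Sum of the 5 ligands (CPM per kb, log axis) against the sum of 10 neutrophil markers (CPM, log axis), with each library as a labelled point coloured by group. The sham libraries, MIRI 2 and GXNI 1 lie at the lower left, GXNI 2 in the middle and MIRI 1, MIRI 3 and GXNI 3 at the upper right.

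The comparison of MIRI with sham hearts asked what injury without the agent changed. In edgeR's quasi-likelihood test a gene was called when its fold change was 1.5 or more and its p before adjustment did not exceed 0.01, as the methods of the study set it. Il6, Lif, Osm and Clcf1 rose, 4 of the 10 members, where 6.15% of 14644 tested genes were called higher. Sham counts of Il6, Lif and Osm were too low to pass the filter on low counts without the MIRI libraries. Their place among the tested genes thus depended on being high there. The log2 fold change was 5.74 for Il6 (SE 1.52), 4.69 for Lif (SE 1.0), 3.83 for Osm (SE 1.03) and 2.93 for Clcf1 (SE 0.56). In folds, these were 53.5, 25.8, 14.2 and 7.62, and in Lif, Clcf1 and Stat3, of the 9 members tested, every MIRI library exceeded every sham library, as in 17.4% of tested genes. After Benjamini-Hochberg adjustment over all genes the edgeR adjusted p was 0.0936, 0.0762, 0.095 and 0.0662, so no member reached 0.05. Il11 did not pass the filter on low counts and had no test in this comparison, its MIRI libraries being all above sham and their mean at least 26.2-fold higher than the same floor.

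Socs3 was 5.98-fold higher in MIRI (log2 fold change 2.58, SE 0.81) and Osmr 2.20-fold higher (1.14, SE 0.39), with adjusted p of 0.116 and 0.127 in edgeR, and neither was called. Il6ra, Stat3 and Il6st had log2 fold changes of 0.64 (95% interval -0.31 to 1.59), 0.48 (-0.04 to 0.997) and 0.19 (-0.15 to 0.54). MIRI 2 decided much of this. Without it 8 members were called higher, all but Il6st and Stat3, and Il6 had a log2 fold change of 6.31, while 16.9% of all genes were then called higher. Without MIRI 1 or MIRI 3 the calls were those of Lif and Clcf1, and without any 1 sham library only Clcf1 was called. Clcf1 was thus called in all 6 of these fits, with log2 fold changes of 2.53 to 3.34. Over the same 6 fits, 340 to 2571 of all genes were called higher, so fewer member calls are not read as a result about the members. DESeq2 called 7 members higher where it called 5.34% of genes, and gave adjusted p of 0.00529 for Il6 and 0.0479 for Socs3.

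GXNI hearts compared with sham showed the family after injury with the agent. Clcf1 rose 8.54-fold (log2 fold change 3.09, SE 0.79, adjusted p = 0.219 in edgeR) and was the 1 member called of the 8 tested, where 2.67% of genes were called higher. Il6 was 43.3-fold (log2 5.44, SE 1.61), Osm 11.1-fold (3.47, SE 1.36), Socs3 5.31-fold (2.41, SE 0.7) and Osmr 2.22-fold (1.15, SE 0.33) above sham, and none of these was called, with adjusted p of 0.219 to 0.237 in edgeR. Il6st and Stat3 differed from sham by 0.35 (SE 0.14) and 0.56 (SE 0.21) on the log2 scale, with adjusted p of 0.237 and 0.23 in edgeR. In 6 of the 8 members tested every GXNI library was above every sham library, namely Il6, Clcf1, Osmr, Il6st, Stat3 and Socs3, where 13.8% of tested genes showed this, and Lif, which was not tested, was separate too. Il6 and Osm were among the 8 tested only through the counts of the GXNI libraries. Without GXNI 1, 7 members were called (Il6, Lif, Il11, Osm, Clcf1, Osmr and Socs3) with 10.7% of genes called higher. Without GXNI 3, the highest library, Clcf1 and Socs3 were called, with 2.11% of genes. Without any 1 sham library no member was called. Over the fits that left out 1 library, 83 to 1603 of all genes were called higher, so that absence is not read as a result about the members. DESeq2 called 7 members with all libraries, with 3.56% of genes called higher.

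All 6 injured hearts against sham gave 5 of 10 members called higher, Il6, Lif, Il11, Clcf1 and Osmr, where 5.52% of 15207 genes were called higher. Sham counts of Il6, Lif and Il11 were too low to pass the filter on low counts without the injured libraries. Their place among the tested genes thus depended on being high there. The folds were 48.0 for Il6, 26.4 for Lif, 8.02 for Clcf1 and 2.20 for Osmr, with log2 fold changes of 5.59 (SE 1.74), 4.72 (SE 1.46), 3.0 (SE 0.74) and 1.14 (SE 0.36), and Il11 was at least 26-fold higher. The adjusted p in edgeR ran from 0.0852 for Clcf1 to 0.0997 for Osmr. Osm and Socs3 were 12.5-fold and 5.6-fold higher with adjusted p of 0.113 and 0.104 in edgeR, and were not called. In Lif, Clcf1 and Stat3 all 6 injured libraries lay above all 3 sham libraries, which 8.4% of genes did. Stat3 was 1.43-fold higher (log2 0.52, SE 0.17, adjusted p = 0.108 in edgeR), under the fold threshold. Without MIRI 2, or without GXNI 1, 7 members were called, Osm and Socs3 being added, where 9.67% and 9.57% of genes were called higher. Without both MIRI 2 and GXNI 3, the count was 6, Socs3 being added, where 6.6% of genes were called higher, and DESeq2 called 7 with all libraries, where it called 5.18%. Without MIRI 1, MIRI 3, GXNI 3, sham 1 or sham 2 the count was 1, the member being Clcf1, without GXNI 2 it was 3, and without sham 3 it was 0. Over the 9 fits that left out 1 library, 254 to 1466 of all genes were called higher. A lower count of members is therefore not read as a result about the members.

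**Figure D4:**
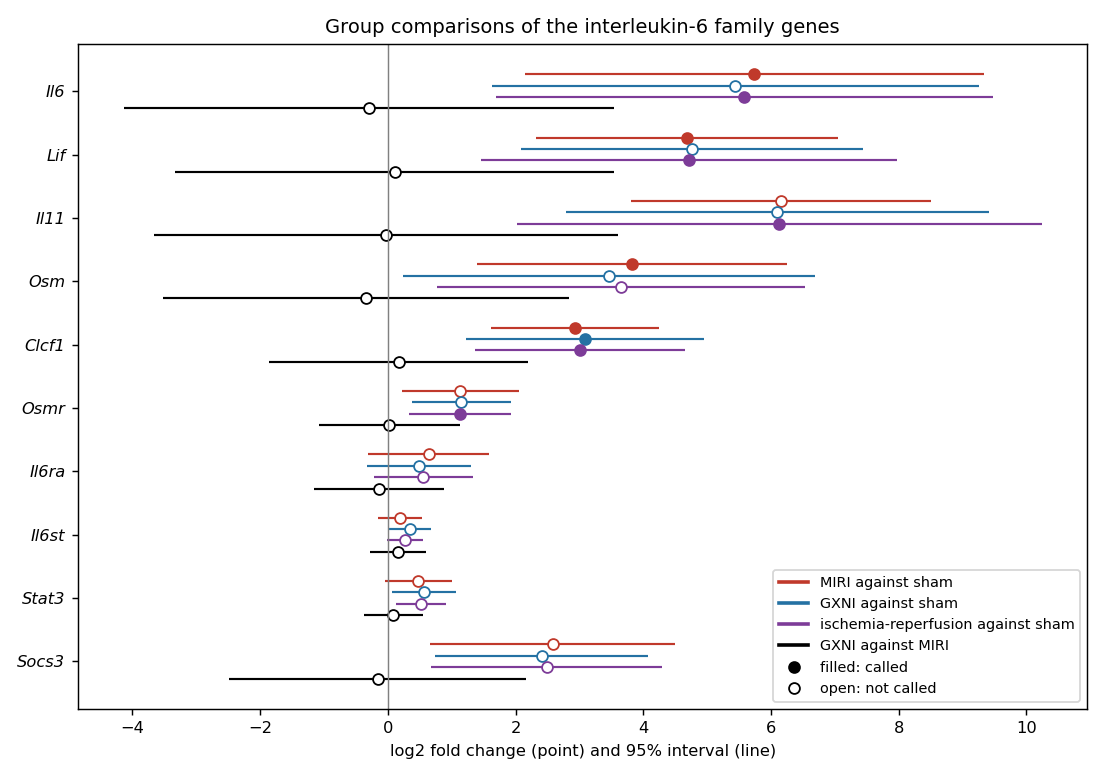
Log2 fold change (point) and 95% interval (line) of each gene in the 4 comparisons, with filled points for called genes. Open points of Il11 against sham in MIRI and GXNI, and of Lif in GXNI against sham, come from the fit with no filter on low counts; the GXNI against MIRI intervals of all 10 genes span 0.

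GXNI against MIRI, the question of what the agent changed in injured hearts, called 0 of 10 members in either direction. Over all genes 0% were called higher and 0.0203% lower, 3 of 14762 genes. At an unadjusted p under 0.05 edgeR counted 47 genes and 0 members, and every member had an adjusted p of 1 in edgeR. At the stricter thresholds of a call, a fold of 1.5 and an unadjusted p of 0.01, DESeq2 called 4 genes higher and 7 lower with 0 members among them. The intervals were wide. The log2 fold change of GXNI against MIRI was -0.29 for Il6 (SE 1.61, 95% interval -4.13 to 3.54), 0.11 for Lif (-3.33 to 3.55), -0.03 for Il11 (-3.66 to 3.60), -0.34 for Osm (-3.53 to 2.84), 0.17 for Clcf1 (-1.86 to 2.20) and -0.16 for Socs3 (-2.49 to 2.17). Each of these intervals held falls and rises of several fold. For Osmr, Il6ra, Il6st and Stat3 the values were 0.02, -0.14, 0.16 and 0.09, and the intervals of Il6st (-0.28 to 0.60) and Stat3 (-0.37 to 0.55) were the narrowest of the members.

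The direction of the GXNI to MIRI difference turned with single libraries. Without GXNI 3 the log2 fold change was -3.09 for Il6, -2.96 for Lif, -2.71 for Osm and -1.35 for Socs3, with no member called. Without GXNI 1 the values were 0.26 for Il6, 0.67 for Lif and 0.24 for Socs3, again with no call. With both MIRI 2 and GXNI 3 left out, which leaves 2 libraries a group, 6 members were called lower in GXNI, where 3.47% of genes were called lower and 1.52% higher. These were Il6 at -3.66, Lif at -3.48, Osm at -3.23, Socs3 at -1.87, Clcf1 at -1.57 and Il6ra at -0.81 on the log2 scale, with adjusted p of 0.182 to 0.189 in edgeR. With MIRI 2 and GXNI 1 left out instead, the libraries nearest sham on the first principal component, no member was called, and Il6 and Socs3 stood at -0.32 and -0.28. These sets were chosen from where libraries lay and are not groups of the study. On the first principal component MIRI 2 lay lowest of the MIRI libraries and GXNI 3 highest of the GXNI libraries. For genes that follow that component, leaving both out favours a lower value in GXNI.

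**Figure D5:**
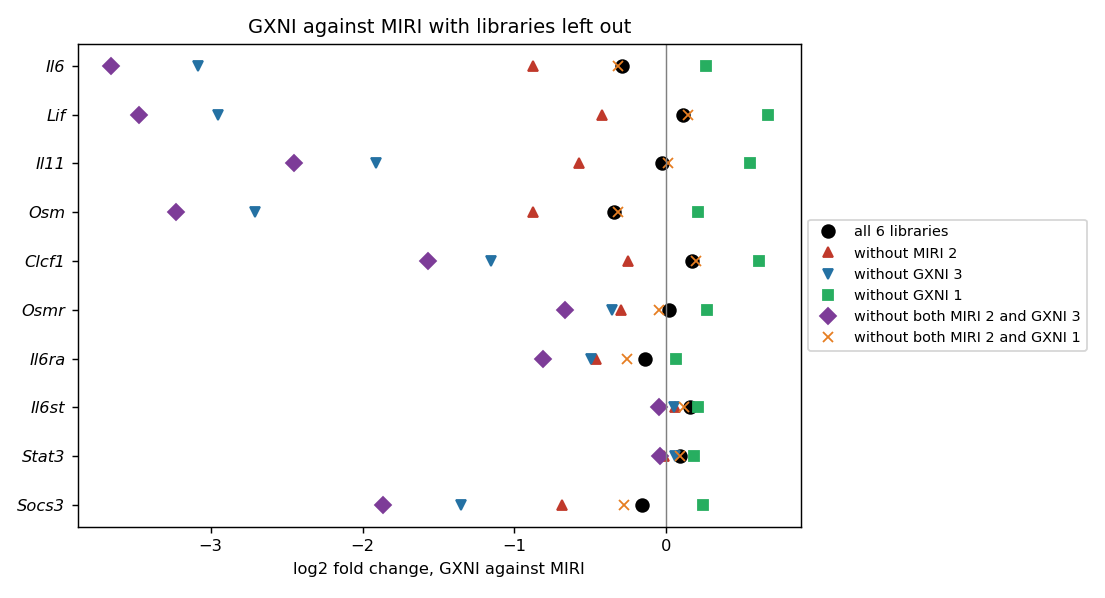
Log2 fold change of GXNI against MIRI for each gene with all 6 libraries (black) and with the libraries named in the key left out. The ligands and Socs3 range from -3.66 to 0.67 depending on the libraries kept, and Il6st from -0.05 to 0.21.

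Other genes of the pathway were counted from lists of ligands, receptors, kinases and STATs, inhibitors, and response genes. Among the further ligand genes, Ctf1, cardiotrophin 1, had a mean of 5.93 CPM in sham and 4.78 in injured hearts (log2 fold change -0.31, SE 0.37).

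Of 5 further receptor chains, 4 were tested and 0 called in either direction in any of the 4 comparisons. The shares of all genes called higher were 6.15% with MIRI, 2.67% with GXNI and 5.52% with all injured hearts against sham. Leaving out 1 library at a time, 209 to 858 of all genes were called lower in injured hearts. With so few genes called, 0 of 4 is not read as a result about the receptors. The median log2 fold change of these chains in injured hearts against sham was -0.52, where the median of all genes was 0.01. Lifr, which encodes the LIF receptor, averaged 64.1 CPM in sham and 35.7 in injured hearts (-0.84, SE 0.37, adjusted p = 0.161 in edgeR). Its values were 81.0, 59.1 and 52.3 CPM in sham and 31.0, 52.4 and 18.7 in MIRI, and 59.9, 33.9 and 18.6 in GXNI, lowest in MIRI 3 and GXNI 3, the libraries with the highest Lif. Il11ra1, the IL-11 receptor chain, averaged 67.1 and 42.3 CPM (-0.67, SE 0.23, adjusted p = 0.109 in edgeR).

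Among the further kinase and STAT genes, Jak1, a kinase of the gp130 complex, stood at 147 CPM in sham and 142 in injured hearts (-0.05, 95% interval -0.41 to 0.30), and Stat5b was at 74.3 and 57.8 CPM (-0.36, SE 0.16).

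Of 8 further inhibitors and phosphatases, all tested, 1 rose in each comparison with sham, Ptpn2, a phosphatase that acts on JAK kinases and STATs, where 6.15% of genes were called higher with MIRI, 2.67% with GXNI and 5.52% with all injured hearts. It stood at 13.7, 12.5 and 13.3 CPM in sham, 37.0, 21.6 and 37.9 in MIRI and 17.7, 27.8 and 42.7 in GXNI. All injured libraries, MIRI 2 and GXNI 1 included, were above sham. Its log2 fold change was 1.30 in MIRI against sham (SE 0.23), 1.17 in GXNI against sham (SE 0.31) and 1.23 in all injured hearts (SE 0.28), with adjusted p of 0.0662, 0.219 and 0.0852 in edgeR. Ptpn2 stayed called in all 6 fits of MIRI against sham and all 9 of injured hearts against sham that left out 1 library, while its GXNI call held only without GXNI 1 and without GXNI 3. Ptpn11 and Cish, the other genes of this list named for their level, had log2 fold changes of -0.26 (SE 0.15) and 0.12 (SE 0.22).

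Of 24 genes known to respond to IL-6 or STAT3, 22 were tested in injured hearts against sham, 4 rose (Junb, Myc, Timp1 and Hp) and 0 fell, where 5.52% of all genes were called higher. Their median log2 fold change was 1.01, with 20 of 22 above 0, where the median of all genes was 0.01. The list was chosen with earlier results of these data known, so these values are a description and not a test of a response. These figures describe differences between groups, and not every gene of the list followed the ligands from library to library. Timp1, an inhibitor of matrix metalloproteinases, was at 17.1, 8.81 and 20.1 CPM in sham, 129, 32.5 and 215 in MIRI and 36.5, 105 and 210 in GXNI, with every injured library above sham. Its log2 fold change was 2.98 (SE 0.7, adjusted p = 0.0852 in edgeR). Myc, a growth regulator, averaged 4.09 CPM in sham and 30.6 in injured hearts, Hp, the acute phase protein haptoglobin, 5.01 and 31.2, and Junb, an AP-1 subunit, 31.1 and 116, with log2 fold changes of 2.91 (SE 0.87), 2.64 (SE 0.72) and 1.90 (SE 0.58). Of these, Timp1 was called in all 9 fits that left out 1 library, Hp in 6, all but those without a sham library, and Myc and Junb in 3, those without MIRI 2, GXNI 1 or GXNI 2. MIRI against sham called Myc, Timp1, Hp and Ch25h, which encodes cholesterol 25-hydroxylase, among 21 tested (median 0.93), where 6.15% of all genes were called higher. Ch25h averaged 17.8 CPM in MIRI and 1.02 in sham (log2 fold change 4.13, SE 1.16, adjusted p = 0.1 in edgeR). In that comparison Hp was called in all 6 fits that left out 1 library, Timp1 in 4, all but those without sham 1 or sham 2, and Myc and Ch25h only in the fit without MIRI 2. GXNI against sham called Junb, Timp1 and Mt2, a metallothionein named after its values were seen, among 22 tested (median 0.98), where 2.67% of all genes were called higher. Among the 6 fits of that comparison that left out 1 library, Timp1 was called in 4, all but those without sham 1 or sham 2, and Junb in 3, those that kept every sham library, and Mt2 in 2, those without sham 1 or GXNI 1. In GXNI against MIRI, 0 of 21 response genes were called and the median was 0.03, where 0% of all genes were called higher and 0.0203% lower. At that share, 0 of 21 is not read as a result about the response genes.

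The genes whose profile over the 9 libraries was most like that of Il6, by Pearson r on log2 CPM among 15206 genes, were Crlf2 (0.994), Cxcl1 (0.993), Sqle (0.992), Traf1 (0.991) and Cap1 (0.991). Cxcl1, a neutrophil chemokine, was at 1.23, 1.73 and 4.21 CPM in sham, 44.0, 3.15 and 51.6 in MIRI and 3.90, 12.3 and 80.1 in GXNI. For Socs3 they were Nek6 (0.997), Il17ra (0.995), Csf3 (0.993), Tut1 (0.993) and Ltb4r1 (0.991). Csf3, the granulocyte growth factor, had at most 2.83 CPM in a library and was at 0 in sham 2 and MIRI 2. These likenesses rest on the same 3 high libraries, and no common function or control is read from them.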

How the data were processed

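Total RNA of 9 mouse hearts was sequenced by the study, 3 sham, 3 MIRI and 3 GXNI. The authors discarded reads with adapter, poly-N or low quality, mapped the others by HISAT2 (build mm10 per the labels), counted them per gene with featureCounts of Subread and deposited these raw counts; versions, annotation and strandedness are not given in the sources used here. Of 54532 gene identifiers, 54495 received a symbol from GENCODE M21 and 37 did not. Members were selected by symbol.

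Counts were analysed with edgeR 4.0.16 in R 4.3.3 (trimmed mean of M-values, filterByExpr, glmQLFit and glmQLFTest), fitting only the libraries compared, over all genes passing the filter. Thresholds were those of the study's methods, a fold of 1.5 and an unadjusted p of 0.01, with Benjamini-Hochberg adjusted p beside them. All tests were two-sided. CPM per kb divides by the union of exons. The floor was 3 counts and log2 CPM used a prior count of 0.5. Libraries differed by more than sampling noise, and none was a duplicate. On simulated counts with 200 genes changed by 2 on the log2 scale, edgeR recovered 200 in each of the 4 comparisons. These counts were drawn from sham means with a fixed dispersion and no outlying libraries, and only well-counted genes were changed. The simulation therefore does not measure how often such a change would be found at the spread of these libraries.

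Alternatives were DESeq2 1.42.0, DESeq2 size factors, no filter, a fit of all 9 libraries, an adjusted p threshold of 0.05, a replicate block, and libraries left out. Leaving out both MIRI 2 and GXNI 1 was chosen after seeing the data. All 10 members are named, and of each pathway list the genes called in MIRI against sham or GXNI against MIRI, up to 6 called in all injured hearts against sham, or otherwise the 2 of highest mean CPM. The members and lists were chosen with earlier results of these data known. Results of some genes of these lists are not reported here. Sequences are from RefSeq (GRCm38.p6).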

Additional observations from a re-analysis of the deposited data

How the results depend on the processing

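Of 504 recomputed fold changes of members, 382 kept their direction and their side of the threshold, 52 were no longer called, 37 became called and 33 changed sign, all of these in GXNI against MIRI. Counts that moved by over 1.5 times follow, and their causes were not tested. At an adjusted p of 0.05, edgeR kept 2 higher and 0 lower genes between MIRI and sham, 4 and 5 between all injured hearts and sham, 0 between GXNI and sham, 0 lower in GXNI against MIRI, and 0 members and 0 other pathway genes. With DESeq2 the numbers of higher and lower genes were 1491 and 760 between MIRI and sham, 994 and 407 between GXNI and sham, 1519 and 677 in all injured hearts, and 4 and 7 in GXNI against MIRI, with 7 members higher in each comparison with sham and 11, 10 and 11 other pathway genes higher and 1, 2 and 2 lower. With no filter on low counts they were 1603 and 803, 999 and 426, 656 lower in all injured hearts, and 4 and 6, with 7 members higher in MIRI and in GXNI against sham, and 11 other pathway genes higher and 2 lower in each comparison with sham. With all 9 libraries in 1 fit they were 535 and 265 between MIRI and sham, 142 lower between GXNI and sham, and 1 and 8 in GXNI against MIRI, with 1 member called in MIRI and in all injured hearts against sham, 3, 2 and 3 other pathway genes higher in the comparisons with sham, and 1 lower between MIRI and sham.

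Without both MIRI 2 and GXNI 3, GXNI against MIRI called 228 genes higher and 520 lower, 6 members and 8 other pathway genes lower, and turned Lif to -3.475, Clcf1 to -1.567, Osmr to -0.667, Il6st to -0.048 and Stat3 to -0.039 on the log2 scale, while 2 other pathway genes were lower in all injured hearts against sham. Without both MIRI 2 and GXNI 1, 1 gene was called higher and 7 lower, and Il11 stood at 0.013 and Osmr at -0.046. Leaving out 1 library at a time gave, between MIRI and sham, 340 to 2571 higher and 174 to 2021 lower for all genes, 1 to 8 higher for members, and 2 to 16 higher and 0 to 3 lower for other pathway genes. In GXNI against MIRI it gave 0 to 8 higher and 0 to 9 lower for all genes, and 0 to 1 lower for other pathway genes. In GXNI against sham it gave 83 to 1603 higher and 90 to 1062 lower for all genes, 0 to 7 higher for members, and 0 to 9 higher and 0 to 2 lower for other pathway genes. In all injured hearts against sham it gave 254 to 1466 higher and 209 to 858 lower for all genes, 0 to 7 higher for members, and 2 to 9 higher and 0 to 2 lower for other pathway genes. In GXNI against MIRI the log2 fold change then ranged over -3.086 to 0.335 for Il6, -2.955 to 0.895 for Lif, -1.911 to 1.005 for Il11, -2.707 to 0.212 for Osm, -1.153 to 0.61 for Clcf1, -0.356 to 0.466 for Osmr, -0.493 to 0.097 for Il6ra, -0.012 to 0.205 for Stat3 and -1.35 to 0.422 for Socs3.

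Same-numbered libraries of different groups were not treated as pairs in the main fits. The correlation of their deviations from the group means ran from -0.445 to 0.701, and not every pair was above 0.1. With 3 libraries a group, such correlations cannot exclude a shared batch. A replicate block gave 2 genes higher and 1 lower in GXNI against MIRI, 2 members higher in GXNI against sham (Il6 at 4.89 and Osm at 2.87 on the log2 scale, with Clcf1 at 2.54 and no longer called), and 1, 1 and 3 other pathway genes lower in MIRI, GXNI and all injured hearts against sham. In GXNI against MIRI the block put Lif at -0.588, Clcf1 at -0.049 and Socs3 at 0.035. Low counts limit the ligands in sham heart, where Il6, Lif, Il11 and Osm had 12 counts or fewer in each library.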
